A study of Homo sapiens with 8 samples.

Results

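The 10 genes described here encode the subunits of hypoxia-inducible factor (HIF) and the enzymes that couple it to oxygen: HIF1A, EPAS1, HIF3A, ARNT, ARNT2, EGLN1, EGLN2, EGLN3, VHL and HIF1AN. They were taken by symbol from a count table of 54261 genes, and all 10 had a row. The table covers total RNA, depleted of ribosomal RNA, from 8 cultures of established human cell lines with 1 library per culture. NCM460 and HIEC6 are lines labelled as normal intestinal epithelium and were untreated (n = 2 lines). DLD1, HCT116 and HCT8 are colorectal carcinoma (CRC) lines, sequenced untreated (n = 3 lines) and again after hypoxia (n = 3 lines). All 8 cultures were labelled passage P5 and were grown in the same medium with serum. The oxygen level and the duration of the hypoxia are not given in the sources used here. The replicates of a group are therefore different lines, each line stands for 1 culture, and no line has a replicate within a condition.

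HIF is a pair of proteins, an alpha subunit that is destroyed when oxygen is present and a stable beta subunit, ARNT or ARNT2. With oxygen, the prolyl hydroxylases EGLN1, EGLN2 and EGLN3 modify the alpha subunit, VHL then binds it and its ligase marks it for the proteasome, while HIF1AN hydroxylates an asparagine and blocks the binding of coactivators. This control acts on the protein, whereas the values below are RNA levels, and some of the enzymes, EGLN3 above all, are known to be HIF targets themselves and so to form a feedback loop.

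Levels were CPM, the count of a gene per 1e+06 counts of its library, and library totals lay between 45519306 and 57374239 counts. A level of 3 counts, taken as the floor, was 0.0523 to 0.0659 CPM. Intervals on counts cover counting error only. The libraries labelled NCM460 and HCT116 were closely alike, with a Pearson correlation across genes of log2(CPM + 1) of 0.994, against 0.924 between NCM460 and HIEC6 (genes are not independent replicates). The library labelled HIEC6 had 10 counts of the epithelial adhesion gene EPCAM and 3 of the intestinal factor CDX2, against 14807 and 981 in NCM460, and 69375 counts of the mesenchymal filament gene VIM against 424. The keratin genes KRT8 and KRT18 were higher in HIEC6 (4290 and 3725 CPM) than in NCM460 (1864 and 1574 CPM), so that the 10 epithelial markers summed to 8019 CPM in HIEC6, 5388 CPM in NCM460 and 4551 to 11484 CPM in the untreated CRC lines. The summed level of 10 mesenchymal markers was 1417 CPM in HIEC6, 104 CPM in NCM460 and 11.7 to 37.0 CPM in the untreated CRC lines. VIM alone made up 1223 CPM of the HIEC6 sum, and COL1A2 and COL3A1 were lower there (0.458 and 1.16 CPM) than in NCM460 (7.99 and 3.98 CPM). Each comparison with the normal lines is therefore also given against each of them alone.

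The 3 sequences below are the 250 bases before the RefSeq start of EGLN1 and EGLN3, the 2 genes whose levels under hypoxia lay above every untreated CRC line, and of HIF1A, whose levels did not (build GRCh38.p14, 5′ to 3′ on the gene's own strand). Capitals mark ACGTG or GCGTG on either strand, the 5 letters of the core of the hypoxia response element to which HIF binds. They lie at chr1:231422288-231422537 (minus strand), chr14:33951075-33951324 (minus strand) and chr14:61695263-61695512 (plus strand).
EGLN1: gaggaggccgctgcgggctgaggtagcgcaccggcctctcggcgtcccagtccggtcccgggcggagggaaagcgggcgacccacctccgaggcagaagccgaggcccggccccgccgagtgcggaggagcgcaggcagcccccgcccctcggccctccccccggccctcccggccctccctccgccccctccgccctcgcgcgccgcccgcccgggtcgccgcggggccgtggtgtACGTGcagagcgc
EGLN3: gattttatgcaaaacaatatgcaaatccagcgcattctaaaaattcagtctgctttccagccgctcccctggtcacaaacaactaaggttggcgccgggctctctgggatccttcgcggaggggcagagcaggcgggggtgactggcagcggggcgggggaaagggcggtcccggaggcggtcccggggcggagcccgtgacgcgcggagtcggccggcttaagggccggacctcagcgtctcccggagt
HIF1A: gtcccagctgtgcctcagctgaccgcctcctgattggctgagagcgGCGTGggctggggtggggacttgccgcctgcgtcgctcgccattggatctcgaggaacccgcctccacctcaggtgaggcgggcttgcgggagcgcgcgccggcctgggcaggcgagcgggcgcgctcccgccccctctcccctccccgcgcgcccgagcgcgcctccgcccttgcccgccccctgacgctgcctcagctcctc
The EGLN1 window held 1 match, beginning 13 bases before the start, the EGLN3 window held 0, and the HIF1A window held 1, beginning 204 bases before the start. A window before another start listed for HIF1A held 0. Of 35116 RefSeq promoter windows of this length, 15172 (43.2%) held at least 1 match. EGLN3, the gene with the largest difference under hypoxia, thus had no match in this window, which says only that these letters are not in it. Sequence farther from the start or inside a gene was not searched. The table had a promoter for 8 of the 10 genes.

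Per kilobase of the MANE Select transcript, HIF1A was the most abundant of the 10 genes in all 5 untreated lines, at 28.5 to 110 CPM per kilobase. HIF3A was the least abundant and EGLN2, whose row is uncertain as described below, the next in all 8 libraries. In between, the order of the untreated lines put VHL at place 2 or 3, at 15.2 to 27.3 CPM per kilobase, and EGLN3 at place 7 or 8, at 2.32 to 5.10 CPM per kilobase. With 1 library per line, neighbours such as ARNT (11.4 to 14.2 CPM per kilobase) and HIF1AN (10.1 to 14.7) had overlapping ranges in the untreated lines. Under hypoxia EGLN3 stood at place 2 in DLD1 and HCT8 and at place 3 in HCT116, at 29.6 to 47.3 CPM per kilobase, and HIF1A at places 1, 4 and 3 in DLD1, HCT116 and HCT8. HIF1A was thus at the top in 1 of the 3 lines under hypoxia. The order depended on the length used. Divided by all annotated exons, VHL (24.1 CPM per kilobase) and EGLN1 (22.2) were above HIF1A (21.8) in untreated HCT8, and EGLN3 stood at places 3, 5 and 3 in DLD1, HCT116 and HCT8 under hypoxia, after 7 or 8 in the untreated lines.

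**Figure D1:**
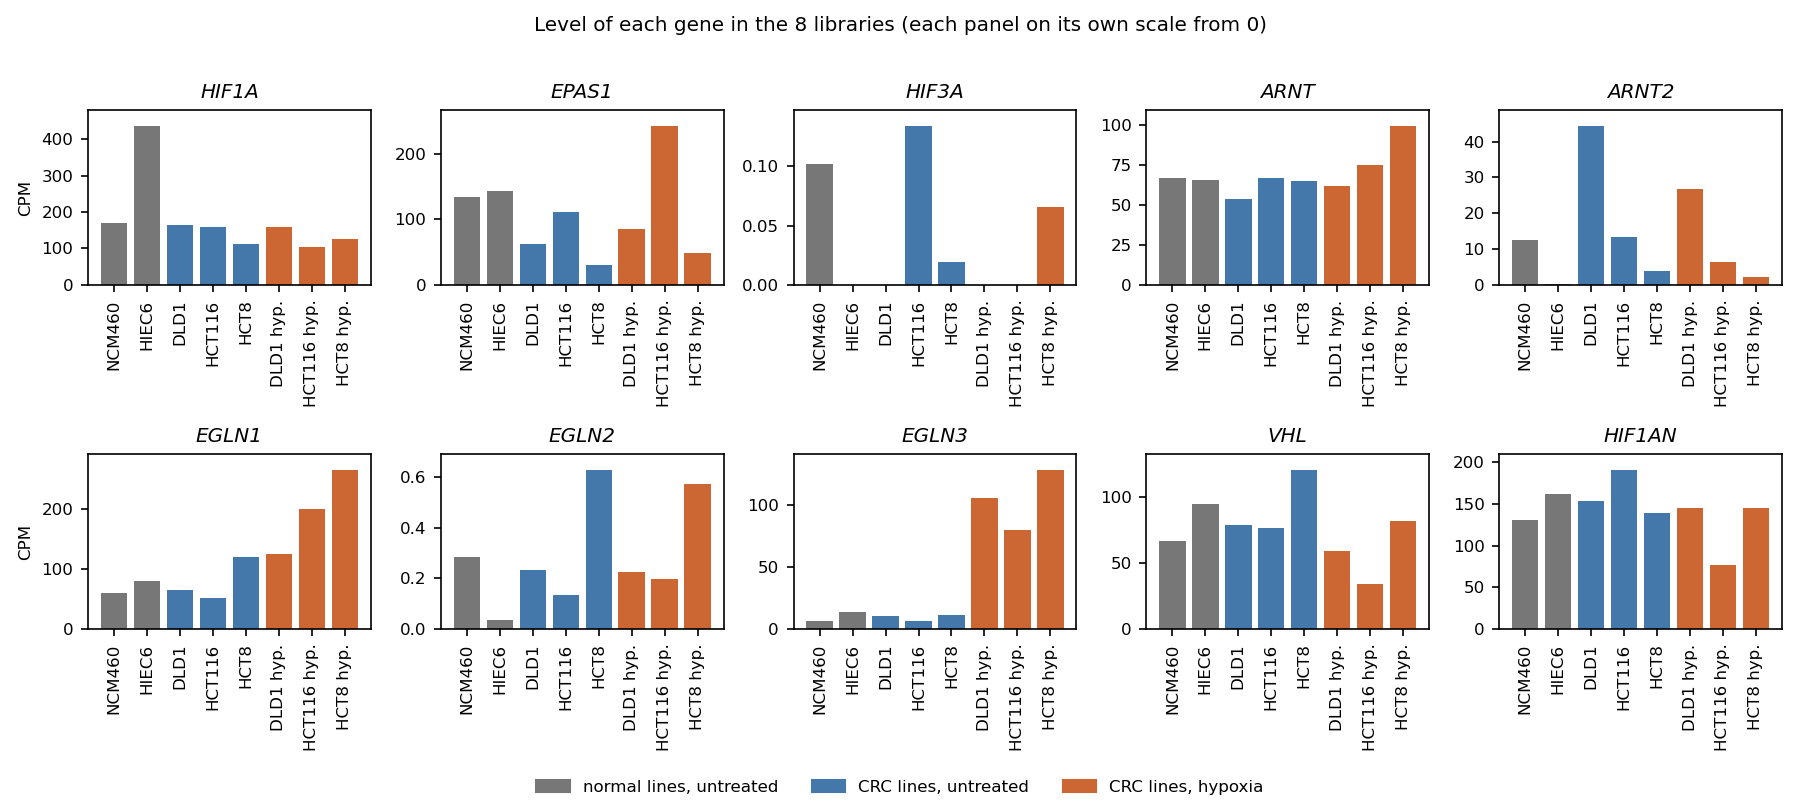
Level of each of the 10 genes (vertical axis, CPM, each panel on its own linear scale from 0) in the 8 libraries, with grey bars for the untreated normal lines, blue for the untreated CRC lines and orange for the CRC lines under hypoxia. EGLN3 lies at 80.1 to 128 CPM in the 3 orange bars and at 6.28 to 13.8 CPM in the other 5, HIF1A has its highest bar in HIEC6 (435 CPM), and HIF3A and EGLN2 stay under 1 CPM.

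The first comparison asks whether the genes of the oxygen sensor differed between the untreated CRC lines and the normal lines. The alpha subunit genes HIF1A and EPAS1 were lower in each CRC line than in both normal lines, with CRC means of 145 CPM ± 28.0 (SD, n = 3) and 67.5 CPM ± 41.0 (SD, n = 3). The normal means were 302 CPM ± 188 and 139 CPM ± 7.09 (SD, n = 2 each). For the other 7 genes tested the 2 groups overlapped. Among all 19964 genes tested, the CRC lines lay all above or all below both normal lines in 18.2%, a share near that of the HIF genes. None of the 10 genes passed an adjusted p of 0.05, and HIF3A was too low to be tested.

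HIF1A (ENSG00000100644), the alpha subunit present in most tissues, is annotated on chromosome 14, plus strand, at 62162231 to 62214977 (GRCh37). Its level was 169 CPM in NCM460 and 435 CPM in HIEC6, and among the CRC lines 163 CPM in DLD1, 158 CPM in HCT116 and 112 CPM in HCT8. HIEC6 stood apart at over 2-fold above every CRC line, whereas NCM460 lay just above DLD1 and HCT116. The log2 fold change, CRC over normal, was -1.28 (SE 0.52, unadjusted p = 0.0565, adjusted p = 0.999 by the quasi-likelihood test of edgeR, Benjamini-Hochberg). Against HIEC6 alone it was -1.84 (SE 0.37, edgeR's unadjusted p = 0.00728, adjusted p = 0.217), and against NCM460 alone it was -0.32. The size of the difference therefore rested on HIEC6, the library with 1223 CPM of VIM, and the part of its marker levels in the HIF1A difference was not tested. In bulk RNA fewer cells of a type and less RNA per cell cannot be told apart.

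EPAS1 (ENSG00000116016) encodes HIF-2 alpha, the alpha subunit prominent in endothelium, and is annotated on chromosome 2, plus strand, at 46520806 to 46613836 (GRCh37). Its level was 134 CPM in NCM460 and 144 CPM in HIEC6, and among the CRC lines 61.8 CPM in DLD1, 111 CPM in HCT116 and 29.6 CPM in HCT8. The normal lines were close to each other and the CRC lines spread from just below them to far below. The log2 fold change was -1.20 (SE 0.62, unadjusted p = 0.107, adjusted p = 0.999 by edgeR's test with Benjamini-Hochberg adjustment), -1.32 against HIEC6 alone and -1.06 against NCM460 alone. The 5 endothelial markers summed to 7.26 CPM or less in these 5 libraries.

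HIF3A (ENSG00000124440), whose products can act as inhibitors of the other alpha subunits, was near the detection limit. It had 5 counts in NCM460, 7 in HCT116 and 1 in HCT8, and 0 in HIEC6 and DLD1. Under hypoxia it had 0 counts in DLD1 and HCT116 and 3 in HCT8. With so few counts the within-line ratio was 0 in HCT116 (95% exact interval of the counts 0 to 0.654) and 3.47 in HCT8 (0.279 to 182). HIF3A did not enter the main fits, so no difference between groups was tested there.

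ARNT (ENSG00000143437), the general beta subunit, was the most even of the genes across the untreated lines, at 66.4 CPM in NCM460 and 65.3 CPM in HIEC6, and among the CRC lines 53.5 CPM in DLD1, 66.7 CPM in HCT116 and 64.7 CPM in HCT8 (log2 fold change -0.28, SE 0.27). ARNT2 (ENSG00000172379), the partner known mainly from brain and kidney, was the most variable. Its level was 12.6 CPM in NCM460 and 0.335 CPM (19 counts) in HIEC6, and among the CRC lines 44.3 CPM in DLD1, 13.5 CPM in HCT116 and 3.82 CPM in HCT8. HIEC6 was below all the other lines, and NCM460 lay within the CRC range. The log2 fold change was 1.59 (SE 1.68, edgeR's adjusted p = 0.999) against both normal lines, 5.70 (SE 2.08, edgeR's adjusted p = 0.317) against HIEC6 alone and 0.63 against NCM460 alone.

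Of the hydroxylase genes, EGLN1 (ENSG00000135766), the main oxygen sensor of most cells, was at 60.2 CPM in NCM460 and 80.4 CPM in HIEC6, and among the CRC lines 65.4 CPM in DLD1, 51.9 CPM in HCT116 and 120 CPM in HCT8. EGLN3 (ENSG00000129521) was low in every untreated line, at 6.53 CPM in NCM460 and 13.8 CPM in HIEC6, and among the CRC lines 10.4 CPM in DLD1, 6.28 CPM in HCT116 and 10.8 CPM in HCT8. In both genes the normal and the CRC lines overlapped, with log2 fold changes of -0.06 (SE 0.42) and -0.37 (SE 0.60). EGLN2 (ENSG00000269858), a hydroxylase known to be responsive to estrogen, had 14 counts in NCM460 and 2 in HIEC6, and among the CRC lines 12 in DLD1, 7 in HCT116 and 33 in HCT8. Its row is uncertain, since 2012 of the 2100 bases of its transcript (95.8%) are also annotated as exon of the readthrough gene RAB4B-EGLN2, whose row was 0 in all 8 libraries. RAB4B, the upstream gene, was also at 0 in all 8 libraries (named after its values were seen). How reads with several matches were counted is not given in the sources used here, so the part of this overlap in the low EGLN2 counts was not tested.

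VHL (ENSG00000134086), the substrate-binding subunit of the ligase, was at 66.9 CPM in NCM460 and 95.1 CPM in HIEC6, and among the CRC lines 79.2 CPM in DLD1, 76.6 CPM in HCT116 and 121 CPM in HCT8 (log2 fold change -0.03, SE 0.35). HIF1AN (ENSG00000166135), the asparaginyl hydroxylase, was at 131 CPM in NCM460 and 162 CPM in HIEC6, and among the CRC lines 153 CPM in DLD1, 191 CPM in HCT116 and 139 CPM in HCT8 (log2 fold change -0.05, SE 0.33). In both genes the groups overlapped. The sign of differences as small as these, and as that of EGLN1, turned with the scaling or with the library left out, and EGLN3 turned to 0.38 against NCM460 alone. The median over all genes moved from -0.0048 with TMM to 0.17 with library totals.

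Of the 10 genes, 9 could be tested, and 0 had an adjusted p under 0.05 in edgeR's quasi-likelihood test, where 0 of 19964 genes (0%) were called at all. An unadjusted p under 0.05 was found for 542 genes, none of them among the 10, and DESeq2 called 143 genes, also none of the 10. Against HIEC6 alone, with the spread taken from the CRC lines, 0 of 18994 genes (0%) were called, while 2994 had an unadjusted p under 0.05. The share of genes whose CRC lines all lay above or all below both normal lines was 18.2%, and 2 of the 9 genes tested did so. HIEC6 differed from all 3 CRC lines by over 2-fold in 22.5% of genes and in 3 of the 9, HIF1A being above and ARNT2 and EGLN2 below. Both shares of the HIF genes came to few genes and stood near those of all genes.

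The library labelled NCM460 was set beside the library labelled HCT116, to which it was most alike. The ratio of NCM460 to HCT116 was 1.07 for HIF1A (95% exact interval of the counts 1.04 to 1.10), 1.21 for EPAS1, 0.995 for ARNT and 0.936 for ARNT2. It was 1.16 for EGLN1, 1.04 for EGLN3, 0.874 for VHL and 0.686 for HIF1AN (0.665 to 0.708). Leaving out EGLN2 and HIF3A, which had few counts, HIF1AN was the gene that differed most between them.

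The second comparison asks how the same genes stood in the CRC lines under hypoxia. EGLN3 was 10.1 to 12.8 times its untreated level in each of the 3 lines and rose by 3.66 on the log2 scale when the line was kept as a block, and no other of the 10 genes passed the threshold. EGLN1 was 1.93 to 3.86 times and EPAS1 1.38 to 2.18 times its untreated level, and ARNT was 1.12 to 1.53 times. ARNT2 and VHL were lower in each line, at 0.470 to 0.606 and 0.451 to 0.747 times. These ratios use library totals. HIF1A itself was at 0.975, 0.651 and 1.12 times its untreated level in DLD1, HCT116 and HCT8. The labels give the untreated CRC libraries 1 run name and the hypoxia libraries another, so treatment and run cannot be told apart.

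The labels number the samples by cell line, and each line's hypoxia library deviated from its group in the same way as its untreated library, so that the values are given without and with the line as a block. Without the block, edgeR's quasi-likelihood test called 0 of 21045 genes (0%) at an adjusted p of 0.05 and 0 of the 9 genes tested here, with 607 genes at an unadjusted p under 0.05. DESeq2 without the block called 55 genes, of which 1 was among the 10, EGLN3. With the block, edgeR called 156 genes higher (0.741%) and 44 lower (0.209%), and among the 10 genes 1 higher, EGLN3, and 0 lower. DESeq2 with the block called 1666 of 21045 genes, 955 higher and 711 lower, and gave 5712 of the 21045 no adjusted p. Among the 10 genes it called EPAS1, EGLN1, EGLN3, ARNT2 and VHL, 5 of the 10. HIF3A was not tested and EGLN2 was given no adjusted p there, so neither could be called. The number of the 10 genes called thus ran from 0 to 5 with the choice of block and tool, and EGLN3 was in each set that was not empty.

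**Figure D2:**
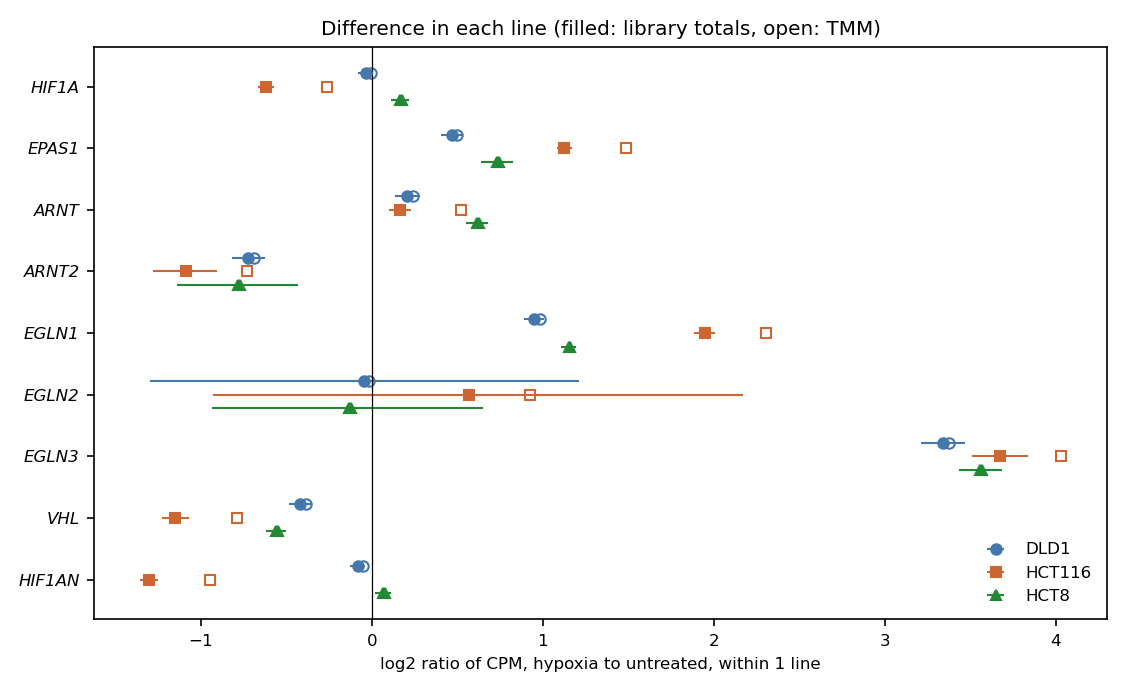
Within-line log2 ratio of CPM, hypoxia over untreated (horizontal axis), for the 9 genes tested, with circles for DLD1, squares for HCT116 and triangles for HCT8. Filled symbols use library totals and carry the exact 95% interval of the counts, open symbols use TMM factors. EGLN3 lies at 3.34 to 3.67 in the 3 lines with library totals, HIF1A lies at -0.62 to 0.17, and TMM shifts the HCT116 values to the right.

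EGLN3, a prolyl hydroxylase whose gene is a known HIF target, is annotated on chromosome 14, minus strand, at 34393433 to 34931980 (GRCh37). Its count was 534 in untreated DLD1 and 6068 under hypoxia, 328 and 4439 in HCT116, and 571 and 5823 in HCT8. In CPM the untreated lines lay at 6.28 to 10.8 and the hypoxia libraries at 80.1 to 128, with no overlap and a gap wider than either range. The ratio within a line was 10.1 in DLD1 (95% exact interval of the counts 9.28 to 11.1), 12.8 in HCT116 (11.4 to 14.3) and 11.8 in HCT8 (10.8 to 12.9). Under TMM these ratios were 10.4, 16.4 and 11.9. Without the block the log2 fold change was 3.63 (SE 0.29, unadjusted p = 1.03e-05, adjusted p = 0.216 by edgeR's test with Benjamini-Hochberg adjustment), the smallest p of the 21045 genes. With the line as a block it was 3.66 (SE 0.22, edgeR's adjusted p = 0.000809), and leaving out any 1 line gave 3.46 to 3.80 with edgeR's adjusted p from 1.91e-05 to 0.0343.

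EGLN1, the hydroxylase with the largest part in HIF control in most cells, is annotated on chromosome 1, minus strand, at 231499497 to 231558033 (GRCh37). Its level was 65.4 CPM in untreated DLD1 and 126 CPM under hypoxia, 51.9 and 200 CPM in HCT116, and 120 and 265 CPM in HCT8. All 3 hypoxia libraries were above all 3 untreated libraries, but DLD1 under hypoxia was only just above untreated HCT8. The within-line ratio was 1.93 (95% exact interval of the counts 1.85 to 2.01), 3.86 (3.70 to 4.02) and 2.22 (2.15 to 2.29), and under TMM 1.98, 4.94 and 2.24. The log2 fold change was 1.49 without the block (SE 0.41, unadjusted p = 0.00974, adjusted p = 1 by edgeR's test with Benjamini-Hochberg adjustment). With the block it was 1.48 (SE 0.27, edgeR's adjusted p = 0.0533), close to the threshold. It passed with library totals in place of TMM (edgeR's adjusted p = 0.0358), without DLD1 (1.73, edgeR's adjusted p = 0.0401) and without HCT116 (1.05, edgeR's adjusted p = 0.00811). It did not pass without HCT8 (1.65, SE 0.38, edgeR's adjusted p = 0.34).

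Levels under hypoxia above every untreated CRC line were found in 3.06% of all genes and in 2 of the 9 tested here, EGLN1 and EGLN3. Levels below every untreated CRC line were found in 6.44% of all genes and in 0 of the 9. A ratio over 2 in each of the 3 lines was reached by 1.51% of all genes and by EGLN3, 1 of the 9.

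EGLN2 had 12 counts in untreated DLD1 and 13 under hypoxia, 7 and 11 in HCT116, and 33 and 26 in HCT8. The counts overlapped, with a log2 fold change of 0.11 (SE 0.82) without and 0.22 (SE 0.71) with the block. With so few counts the within-line ratio was known only to lie between 0.407 and 2.32 in DLD1, 0.525 and 4.51 in HCT116, and 0.523 and 1.57 in HCT8 (95% exact intervals of the counts).

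Since EGLN3 and EGLN1 were both higher under hypoxia, their shares of the summed level of the 3 EGLN genes per kilobase were set beside each other. EGLN2, whose row is uncertain, made up only 0.0710% to 0.936% of that sum in the 8 libraries. The shares therefore set EGLN3 against EGLN1 in effect. EGLN3 made up 20.2% of that sum in untreated DLD1, 16.2% in HCT116 and 12.6% in HCT8, and 57.2%, 39.0% and 43.5% under hypoxia. The normal lines, at 14.7% in NCM460 and 21.5% in HIEC6, overlapped the untreated CRC lines and lay below every hypoxia library. The mean went from 16.3% ± 3.84 (SD, n = 3) to 46.6% ± 9.48 (SD, n = 3), a difference of 30.3 percentage points (exact permutation test, two-sided, p = 0.1, the smallest that 3 against 3 can give). The difference was 37.0 points within DLD1, 22.9 within HCT116 and 30.9 within HCT8, an exact sign-flip test of these 3 giving p = 0.25, again the smallest possible. Over all exons of the annotation, in place of 1 transcript per gene, the difference was 20.6 points. The summed level of the 3 genes was 14.4 to 31.9 CPM per kilobase in the untreated CRC lines and 68.3 to 109 under hypoxia.

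**Figure D3:**
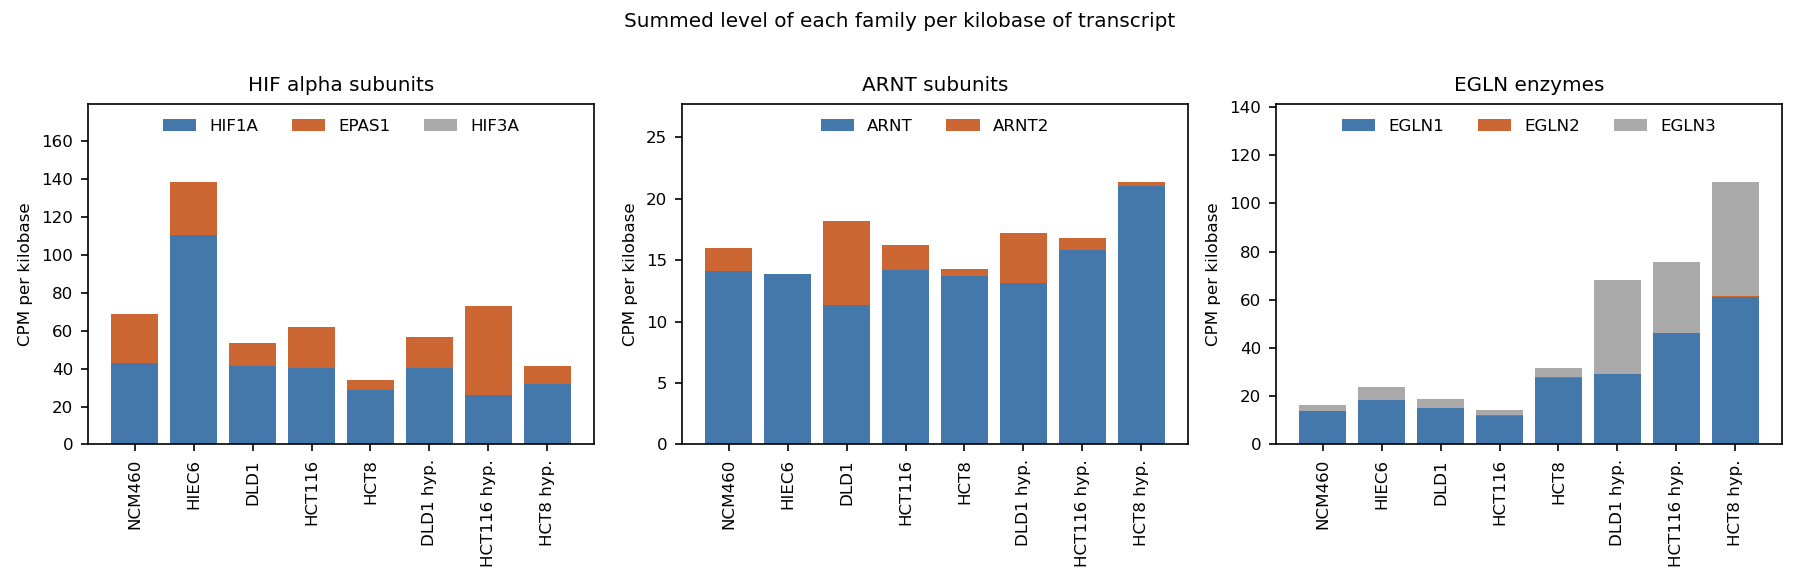
Summed level in CPM per kilobase of transcript (vertical axis, linear from 0) of the alpha subunits, the ARNT subunits and the EGLN enzymes in the 8 libraries, with each bar stacked by gene. In the EGLN panel, where the EGLN2 row is uncertain, the 3 hypoxia libraries reach 68.3 to 109 with 39.0% to 57.2% from EGLN3. In the alpha subunit panel EPAS1 makes up 64.3% in HCT116 under hypoxia.

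HIF1A had the smallest log2 fold change of the 9 genes tested. Its level was 163 CPM in untreated DLD1 and 159 CPM under hypoxia, 158 and 103 CPM in HCT116, and 112 and 126 CPM in HCT8. The groups overlapped, and the lines went in different directions. The ratio was 0.975 in DLD1 (95% exact interval of the counts 0.946 to 1.005), 0.651 in HCT116 (0.629 to 0.673) and 1.12 in HCT8 (1.08 to 1.16), and under TMM 0.998, 0.834 and 1.13. The fitted log2 fold change was -0.05 (SE 0.28, edgeR's adjusted p = 1) without the block and -0.03 (SE 0.18, edgeR's adjusted p = 0.951) with it.

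The HCT116 ratio depended on the scale because the library of HCT116 under hypoxia had a TMM factor of 0.771, against 0.988 to 1.13 in the other 5 CRC libraries. Each HCT116 ratio is therefore higher under TMM than with library totals, and the ratios of the single genes below are given on both scales. The median log2 fold change over all genes was 0.06 with TMM and -0.06 with library totals, both without the block.

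EPAS1 was at 61.8 CPM in untreated DLD1 and 85.4 CPM under hypoxia, 111 and 243 CPM in HCT116, and 29.6 and 49.2 CPM in HCT8. It was higher in each line, and the groups overlapped since the lines differed more from each other than with hypoxia. The ratio was 1.38 (95% exact interval of the counts 1.32 to 1.45), 2.18 (2.12 to 2.25) and 1.66 (1.56 to 1.78), and under TMM 1.41, 2.80 and 1.68. The log2 fold change was 1.16 without the block (SE 0.85, edgeR's adjusted p = 1) and 0.91 with it (SE 0.22, edgeR's unadjusted p = 0.00339, adjusted p = 0.101). Without the library of HCT116 under hypoxia the value without the block was -0.07. The 5 endothelial markers summed to 13.2, 2.20 and 1.76 CPM in the hypoxia libraries of DLD1, HCT116 and HCT8, with VWF at 12.7 CPM in DLD1 and CDH5 at 0 counts in HCT116 and HCT8.

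The log2 ratio of EPAS1 counts to HIF1A counts does not depend on the library's total. It was -1.40 in untreated DLD1 and -0.90 under hypoxia, -0.51 and 1.23 in HCT116, and -1.93 and -1.36 in HCT8. EPAS1 exceeded HIF1A in counts in 1 of the 8 libraries, HCT116 under hypoxia. The mean was -1.28 ± 0.71 (SD, n = 3) untreated and -0.34 ± 1.38 (SD, n = 3) under hypoxia, a difference of 0.94 (exact permutation test, two-sided, p = 0.4, where 0.1 is the smallest possible). Within the lines the difference was 0.50, 1.75 and 0.57 (exact sign-flip test p = 0.25, the smallest possible), and leaving out the library of HCT116 under hypoxia brought the difference of the means to 0.15.

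Of the beta subunits, ARNT was at 53.5 CPM in untreated DLD1 and 61.7 CPM under hypoxia, 66.7 and 74.7 CPM in HCT116, and 64.7 and 99.0 CPM in HCT8. The groups overlapped. The within-line ratio was 1.15 (95% exact interval of the counts 1.10 to 1.21), 1.12 (1.07 to 1.17) and 1.53 (1.46 to 1.60), and under TMM 1.18, 1.43 and 1.54. The fitted log2 fold change was 0.48 without the block and 0.46 with it (SE 0.18, edgeR's adjusted p = 0.215).

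ARNT2 was at 44.3 CPM in untreated DLD1 and 26.9 CPM under hypoxia, 13.5 and 6.34 CPM in HCT116, and 3.82 and 2.22 CPM in HCT8. It was lower in each line, while the order of the lines, DLD1 above HCT116 above HCT8, was the same in both conditions and the groups overlapped. The within-line ratios were 0.606 (95% exact interval of the counts 0.568 to 0.647), 0.470 (0.412 to 0.534) and 0.581 (0.453 to 0.742), and under TMM 0.620, 0.602 and 0.586. Fitted over the lines, the log2 fold change was -0.70 without the block (SE 1.16, and 0.54 when untreated DLD1 was left out) and -0.73 with it (SE 0.21, edgeR's adjusted p = 0.133, DESeq2's adjusted p = 0.0202).

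VHL is annotated on chromosome 3, plus strand, at 10183462 to 10195351 (GRCh37). Its level was 79.2 CPM in untreated DLD1 and 59.1 CPM under hypoxia, 76.6 and 34.5 CPM in HCT116, and 121 and 81.7 CPM in HCT8. Each line was lower under hypoxia, but HCT8 under hypoxia was above untreated DLD1 and HCT116. The within-line ratios were 0.747 (95% exact interval of the counts 0.714 to 0.782), 0.451 (0.426 to 0.476) and 0.677 (0.650 to 0.705), and under TMM 0.765, 0.577 and 0.682. The fitted log2 fold change was -0.57 without the block (SE 0.28) and -0.58 with it (SE 0.18, edgeR's adjusted p = 0.149, DESeq2's adjusted p = 0.0375).

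HIF1AN was at 153 CPM in untreated DLD1 and 145 CPM under hypoxia, 191 and 77.2 CPM in HCT116, and 139 and 146 CPM in HCT8. HCT116 under hypoxia was the lowest of the 8 libraries, and the other hypoxia libraries were near their untreated levels. The within-line ratio was 0.944 (95% exact interval of the counts 0.915 to 0.974), 0.405 (0.391 to 0.420) and 1.05 (1.01 to 1.08), and under TMM 0.966, 0.519 and 1.05. Fitted over the lines, the log2 fold change was -0.31 without the block (SE 0.27) and -0.30 with it (SE 0.23, edgeR's adjusted p = 0.529).

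Counted over the lines, 4 of the 9 genes tested were higher in each of the 3 pairs (EPAS1, ARNT, EGLN1 and EGLN3), against 16.6% of all genes. Lower in each of the 3 pairs were 2 of the 9 (ARNT2 and VHL), against 27.2% of all genes. Under TMM each of these 6 genes kept its direction, against 24% of all genes higher and 21.3% lower in each pair. With library totals, a ratio past 2-fold in either direction was found in 14.8% of all genes in DLD1, 33.8% in HCT116 and 21% in HCT8. Of the 9 genes EGLN3 was past 2-fold in DLD1, EGLN3 and EGLN1 in HCT8, and 6 in HCT116, EPAS1, EGLN1 and EGLN3 being higher and ARNT2, VHL and HIF1AN lower. TMM factors left 3 of these 6 in HCT116, the higher ones, against 29.9% of all genes, and the same genes in DLD1 (14.9% of all genes) and HCT8 (21%).

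**Figure D4:**
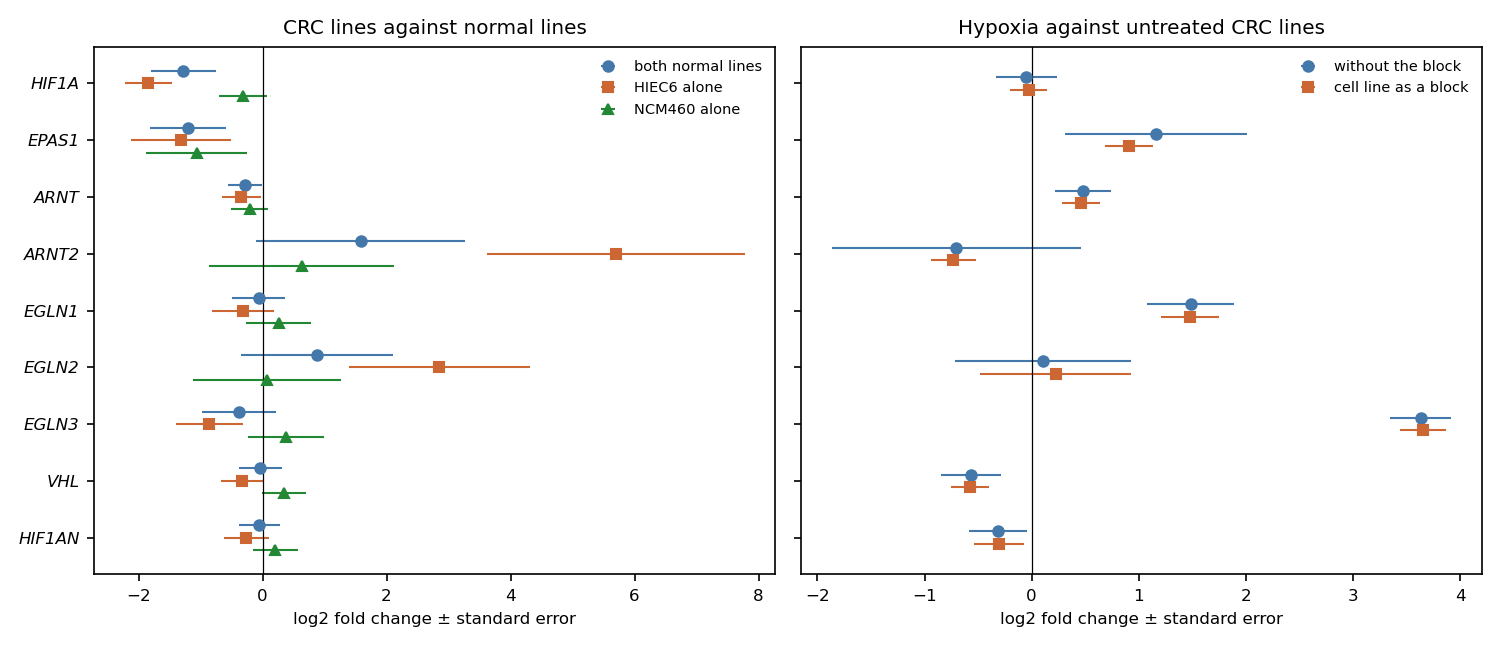
Log2 fold change with its standard error (horizontal axis) of the 9 genes tested, on the left for the CRC lines against both normal lines (circles), HIEC6 alone (squares) and NCM460 alone (triangles), on the right for hypoxia against untreated CRC lines without the line as a block (circles) and with it (squares). The HIF1A value moves from -1.84 against HIEC6 to -0.32 against NCM460, and the block narrows the EPAS1 error from 0.85 to 0.22.

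A gene on the opposite strand of HIF1A, HIF1A-AS2, was the other transcript of the HIF loci that stood out. Its count was 9 in untreated DLD1 and 262 under hypoxia, 5 and 1052 in HCT116, and 21 and 920 in HCT8, and 4 in NCM460 and 0 in HIEC6. All hypoxia libraries were above all the untreated ones. The ratio of CPM was 26.0 (95% exact interval of the counts 13.5 to 57.5), 198 (84.8 to 612) and 50.7 (33.0 to 82.3). Under TMM it was 26.6, 254 and 51.1. The fit with the block gave a log2 fold change of 6.04 (SE 0.59, edgeR's adjusted p = 0.0063) and the fit without it 6.23 (SE 0.96, edgeR's adjusted p = 1). Of the untreated libraries only HCT8 reached 10 counts, so the gene entered the fit through the hypoxia libraries and had to differ, and its p is no support. Of its 2051 bases in RefSeq, 1220 (59.5%) overlap the HIF1A gene, and whether the counting used the strand is not given in the sources used here, so reads of the 2 genes cannot be told apart with certainty.

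**Figure D5:**
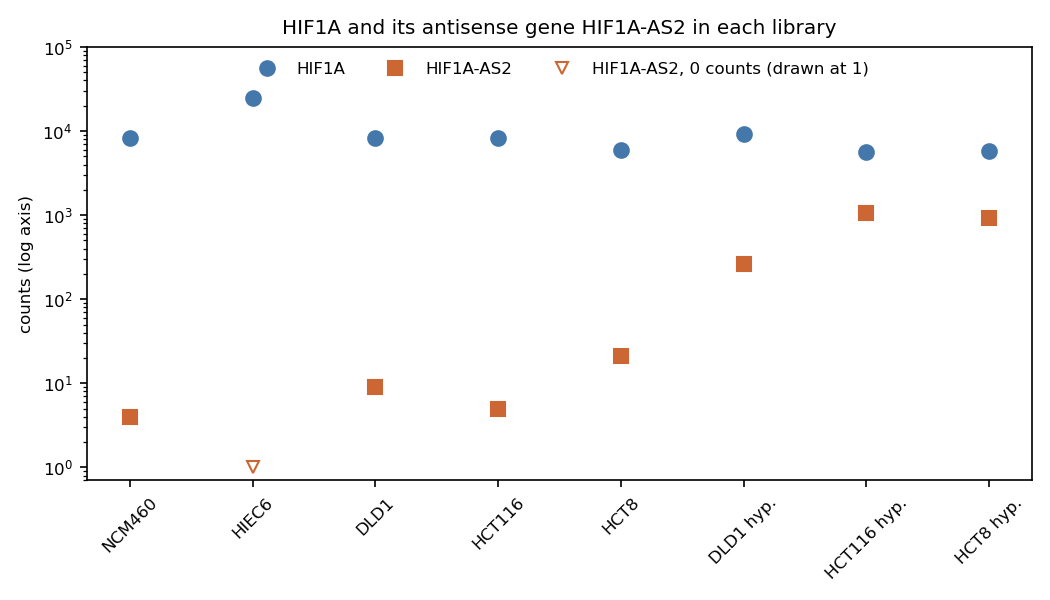
Counts of HIF1A (circles) and of the antisense gene HIF1A-AS2 (squares) in the 8 libraries on a log axis, with the library at 0 counts drawn as an open triangle at 1. HIF1A-AS2 lies at 0 to 21 counts in the untreated lines and at 262 to 1052 under hypoxia, while HIF1A stays between 5710 and 24698.

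HIF1A-AS1, a further antisense gene, had 0 to 32 counts, and EGLN3-AS1 had 0 counts in all 5 untreated libraries and 23, 2 and 4 under hypoxia in DLD1, HCT116 and HCT8. Of 6 names listed for transcripts that overlap or adjoin the HIF genes, 4 had a row and 1, HIF1A-AS2, entered the fit. Against the floor of 3 counts EGLN3-AS1 was 6.84-fold higher in DLD1 under hypoxia (exact 95% interval of the counts, without the floor, from 5.13). The values in HCT116 and HCT8 were below and just above that floor, and the unknown strand of counting touches these genes too.

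The partners of the pathway were read from lists beside the same fits, with a median log2 fold change over all genes of 0.03 with the block and 0.06 without it. Of the 4 other subunits of the VHL ligase, 0 passed with the block, at 0.13 for the elongin gene ELOB (listed as TCEB2), -0.20 for ELOC (TCEB1), -0.14 for the scaffold CUL2 and -0.18 for the RING protein RBX1. Of 5 coactivators and their competitors, 0 passed, at 0.26 for EP300 and 0.24 for CREBBP, the acetyltransferases that HIF recruits. CITED2, which competes with HIF for them, was at 1.15 (SE 0.22, edgeR's adjusted p = 0.0621). None of these lists held a gene past the threshold without the block.

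Of 17 genes for the turnover of the hydroxylases and the stability of HIF, 0 passed with the block, 8 were higher and 9 lower, and the median was -0.13. The ubiquitin ligases SIAH1 and SIAH2, which degrade EGLN proteins, were at -0.32 and 0.53. SIAH2 was higher in HCT116 only, at 3.06 times its untreated level, against 0.861 in DLD1 and 0.918 in HCT8 (library totals). The scaffolds LIMD1 and AJUBA, which bring EGLN proteins and VHL together, were at -0.36 and -0.59. WSB1, a ligase subunit known to act on VHL, was at 1.02 (SE 0.24, edgeR's adjusted p = 0.096). Of 7 other partners of ARNT and ARNT2, 4 could be tested and 0 passed, with the dioxin receptor AHR at 0.30 and its repressor AHRR at 0.25.

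As context for the hypoxia label, 16 known HIF target genes were read from the same fit. With the block 12 of the 16 passed, where 156 of 21045 genes (0.741%) were called higher. All 16 had positive values with the block, with a median log2 fold change of 2.82. Without the block 0 of 16 passed with a median of 2.95. These counts and medians include CA9, a carbonic anhydrase, for which neither the call nor the positive value is support. CA9 entered the fit through the hypoxia libraries, with 1 count untreated and 242 under hypoxia in DLD1, 6 and 1039 in HCT116, and 4 and 178 in HCT8. ANGPTL4, a secreted lipase inhibitor, rose by 5.38 and NDRG1 by 4.37. The glycolytic genes LDHA, ALDOA, PGK1 and ENO1 rose by 2.59, 2.23, 2.08 and 1.47. BHLHE40 (3.53), PDK1 (3.004), P4HA1 (2.63) and KDM3A (2.51) passed too. BNIP3 (3.75) passed on 1 line, with 969 counts in untreated HCT116 and 10624 under hypoxia, against 0 and 5 in DLD1 and 0 and 1 in HCT8. ADM (3.26), ANKRD37 (5.13), SLC2A1 (1.81) and VEGFA (1.32) did not pass, at edgeR's adjusted p from 0.0516 to 0.104. The EGLN3 value of 3.66 lay within the range of these targets, the EGLN1 value of 1.48 at its lower end, and HIF1A, at -0.03, outside it. The summed level of the targets was 3591 to 5463 CPM in the untreated CRC lines, 13564 to 26631 CPM under hypoxia and 8775 CPM in untreated HIEC6.

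Of the markers of cell types, 2 passed with the block and 0 without it. Of 8 mesenchymal markers tested all had positive values with the block and 1 passed, FN1 (2.80). LUM and DCN entered the fit through the hypoxia libraries, so their positive values are no support. In untreated DLD1, HCT116 and HCT8, LUM had 1, 6 and 0 counts and DCN 0, 8 and 3. The summed level of the 10 mesenchymal markers was 11.7 to 37.0 CPM untreated and 25.0 to 166 CPM under hypoxia. In the HCT8 pair several of these markers were lower under hypoxia, with VIM going from 54 to 10 counts, COL1A2 from 66 to 21 and COL3A1 from 56 to 44. Of 10 epithelial markers 8 had positive values and 1 passed, KRT19 (1.56), with EPCAM at -0.18, and of 3 endothelial markers tested 0 passed. The part of these differences in the levels of the HIF genes was not tested.

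The genes whose profile over the 8 libraries was most like that of 4 of the HIF genes were found by the root mean square distance between centred log2 CPM, among 12196 genes with a mean log2 CPM above 1. For EGLN3 they were BNIP3L (0.58), PDK1 (0.61) and C4orf3 (0.68), beside a standard deviation of EGLN3 itself of 1.76. For EGLN1 (own standard deviation 0.81) they were DNM2 (0.24), TSC22D4 (0.32) and OPTN (0.33). For EPAS1 (1.07) they were DST (0.24), S100A2 (0.29) and QKI (0.30), and for HIF1A (0.67) SAMM50 (0.16), ADRM1 (0.18) and EMC6 (0.19). The 8 points share lines and runs, and the distances are a description.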

How the data were processed

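Total RNA of 8 cell line cultures was sequenced after removal of ribosomal RNA. The authors deposited 1 table of raw counts per gene (54261 genes, 8 columns, 0 left aside). The paper names GRCh37.p13, whereas the submitters' processing notes name GRCh38 and HISAT2 2.0.4, so the build of the counts is uncertain. The counter, the strand setting and the annotation are not given in the sources used here. The protocol in the labels names a brain tissue, although the samples are cell lines.

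The 10 genes and all gene lists were chosen with earlier results of these data known. All 10 are named, list genes by a rule (those past the threshold with the block and at most 4 others per list, in the order listed). WSB1 was named in addition after its value was seen. Genes needed 10 counts or more in 2 or more libraries of a fit. Fits used edgeR 4.0.16 in R 4.3.3 (quasi-likelihood test, TMM, Benjamini-Hochberg over all genes tested, threshold 0.05). The standard error was the log2 fold change over the root of F. Untreated CRC and normal lines made 1 fit of 5 libraries, and the CRC lines in both conditions another of 6. Without the block the p-values measure the spread between lines, and with it the spread of the hypoxia difference among the lines. The replicate number in the labels is the cell line and so pairs the hypoxia samples. As a check, each library's deviation from its group mean was correlated with that of the same line in the other condition, which gave 0.890 for DLD1, 0.878 for HCT116 and 0.884 for HCT8, whereas different lines gave -0.644 to -0.136. All untreated libraries carry 1 run label and the hypoxia libraries another, and a further run label stands beside it on NCM460, DLD1 under hypoxia and HCT116 under hypoxia.

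Pair ratios have exact conditional 95% intervals. Permutation tests used SciPy 1.17.1. Lengths (MANE Select transcript) and positions came from GENCODE 44 on GRCh37, promoters from RefSeq on GRCh38.p14. Alternatives were DESeq2 1.42.0, limma-trend (limma 3.58.1), other scalings and filters, all 8 libraries in 1 fit and each library left out, and, chosen after seeing the data, TMM factors for the ratios within lines and all annotated exons as the length for the EGLN3 share and the order per kilobase. The procedure was tested on simulated data.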

Additional observations from a re-analysis of the deposited data

Results flagged for a closer look

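In HIF1A and HIF1AN the lines differed in direction under hypoxia, each line being 1 pair of libraries, so that the differences between lines were not tested. The ratio of CPM, hypoxia over untreated, of HIF1A was 1.12 in HCT8 and 0.651 in HCT116, and that of HIF1AN was 1.05 in HCT8 against 0.944 in DLD1 and 0.405 in HCT116. Under TMM the directions were the same, with HIF1A at 1.13 and 0.834 and HIF1AN at 1.05, 0.966 and 0.519. Groups of 2 or 3 libraries were too small for a search for single libraries that stand apart.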

How the results depend on the processing

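None of the 10 genes passed in the comparison with the normal lines under any alternative run. Over all genes DESeq2 called 143 there and 55 under hypoxia, where the replicate block gave 200, the block with DESeq2 1666 and the block with library totals 172. Without 1 line the block called 292 (no DLD1), 738 (no HCT116) and 6 (no HCT8). Of the 10 genes, 1 passed under hypoxia with DESeq2, 1 with the replicate block, 5 with the block and DESeq2, 2 with the block and library totals, and 1 to 2 with the block and 1 line left out. Without the block, leaving out 1 library gave 0 calls in every case. The EGLN3 difference kept its direction in all alternatives run, at 3.45 to 3.80 with libraries or lines left out, and the difference of its share was 24.9 to 34.0 points with 1 library left out and 24.6 points without division by length. The EPAS1 to HIF1A log2 ratio differed by 0.15 to 1.45 with 1 library left out.

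Several small log2 fold changes turned sign. Against the normal lines EGLN1, VHL and HIF1AN were at 0.048, 0.077 and 0.053 under upper-quartile scaling and at 0.17, 0.18 and 0.14 with library totals, and HIF1AN at 0.096 with the replicate block, although equal numbers there stand for different lines. Leaving out 1 library gave -0.41 to 0.26 for EGLN1 and -0.32 to 0.34 for VHL (turned without HIEC6, DLD1 or HCT116), -0.86 to 0.38 for EGLN3 (without HIEC6) and -0.26 to 0.21 for HIF1AN (without HIEC6 or HCT8). Under hypoxia EGLN2 was at -0.0015 with library totals. Leaving out 1 library there gave -0.24 to 0.066 for HIF1A and -0.34 to 0.86 for EGLN2 (turned without untreated DLD1, untreated HCT116 or HCT8 under hypoxia), -0.067 to 1.79 for EPAS1 (without HCT116 under hypoxia) and -1.98 to 0.54 for ARNT2 (without untreated DLD1). With the block and without HCT116, HIF1A was at 0.070 and EGLN2 at -0.090. TMM in place of library totals turned no ratio within a line. It moved 8 of 9 genes beyond the counting interval in HCT116 and 0 in DLD1 and HCT8, with HIF1A in HCT116 at -0.26 and HIF1AN at -0.95 on the log2 scale. TMM multiplies every HCT116 ratio by the same factor, so which genes moved depended on the width of their intervals. What lay behind the TMM factor of 0.771 of HCT116 under hypoxia, and behind the turned signs, was not tested. Under hypoxia the block changed the call of EGLN3 alone among the 10 genes with edgeR and TMM. With edgeR and library totals it added EGLN1 and EGLN3, and with DESeq2 it added EPAS1, EGLN1, ARNT2 and VHL to EGLN3.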
